A study of Homo sapiens with 6 samples.

Results

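The genes described here are the cytosolic chaperones of the HSP70, HSP90 and J-domain families, with their co-chaperones, the small heat shock proteins and the heat shock factors. They are the rows of the deposited tables whose gene symbol is on a fixed list of 49 symbols, and all 49 were found among the 26255 symbols. The name "cytosolic" holds for most but not all of them. HSPA13 is a microsomal protein, DNAJA3 works in mitochondria, DNAJB12 and DNAJB14 sit in the endoplasmic reticulum membrane with the J-domain facing the cytosol, and HSPB11 is better known as a part of intraflagellar transport.

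Messenger RNA libraries were sequenced from HCT116, an established human colorectal cancer cell line, in 3 libraries of ZsGreen-negative and 3 libraries of ZsGreen-positive cells. Per the series title the cells were transduced with a degron of ornithine decarboxylase, a signal for degradation by the proteasome without ubiquitin. A ZsGreen-degron fusion therefore accumulates in cells that degrade it slowly, and the title presents such cells as a cancer stem cell model. The labels name no treatment, dose or time, and do not say how the cells were separated, whether they came from 1 clone, or whether the libraries of a group came from separate cultures. The p-values thus reflect the spread among these libraries, which may be only technical, and any difference in preparation between the groups cannot be told apart from that in fluorescence.

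HSP70 proteins bind exposed hydrophobic stretches of unfolded proteins in a cycle of ATP hydrolysis. J-domain proteins deliver the substrate and start hydrolysis, and nucleotide exchange factors (HSP110 and BAG proteins) release it. Clients such as kinases and steroid receptors pass on to HSP90, which works with its own co-chaperones. The heat shock factor HSF1 drives the inducible members by binding heat shock elements, inverted repeats of the unit GAA.

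The chaperone genes did not move as a block: in ZsGreen-positive cells HSP90AB1 and 6 of 7 HSP90 co-chaperones rose, while the inducible HSPA1B and the J-domain genes DNAJA1 and DNAJB1 fell. HSP90AB1, the constitutive cytosolic HSP90, rose from 408 ± 8.25 to 1067 ± 48.9 FPKM (mean ± SD, n = 3 libraries per group). FPKM counts fragments per kilobase of transcript, scaled for the sequencing depth of a library. HSPA1B, the stress-inducible HSP70, fell from 114 ± 3.27 to 28.99 ± 2.67 FPKM. DNAJB1, the J-domain protein most closely tied to the heat shock response, fell from 113 ± 1.91 to 47.1 ± 5.20 FPKM. HSPA8 and HSP90AA1, the other abundant members, were at 917 ± 10.7 against 968 ± 50.2 FPKM and 487 ± 6.08 against 499 ± 11.2 FPKM. In such bulk libraries, a change in the number of cells that express a gene and a change in the RNA of each cell cannot be told apart.

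Of the 49 genes, 45 had a mean of at least 1 FPKM over the 6 libraries and were tested with limma on log2(FPKM + 1). With a Benjamini-Hochberg adjusted p below 0.05, 17 were higher and 16 lower in ZsGreen-positive cells, and 12 did not pass. Of all 12213 genes tested, 29.4% were higher and 30.0% lower. In total 33 members passed (73.3%), where 59.4% of all genes did, and 71.6% of the genes at 10 FPKM or more. Of the 38 members at that level, 28 passed (73.7%), so the share of called members is near that of other genes of like abundance. Changes of at least 2-fold were found for 2 higher members (HSP90AB1 and FKBP5, against 9.48% of all genes) and 4 lower ones (HSPA1B, DNAJB4, DNAJB1 and HSPA13, against 8.34%). Groups without overlap were seen for 37 of the 45 members and for 67.6% of all genes. Members had a median log2 fold change of -0.10, all genes one of 0.0040.

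The balance between rises and falls depended on the scaling between libraries. After rescaling of each library to sum to 1000000, 21 members were higher and 8 lower, so that 72.4% of the called members were higher in place of 51.5%, and the median of all genes moved to 0.14. With quantile normalisation 13 were higher and 19 lower (40.6% higher). Scaling by median ratios left the counts of the main fit, 17 higher and 16 lower. The share of higher genes among all called genes moved in the same directions, from 49.5% to 62.1% after rescaling and 45.1% with quantile normalisation. Of the 33 called members, 21 kept their call under all 17 alternatives that could test them, 13 of them higher and 8 lower. None of the 33 changed sign under these alternatives.

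Most libraries had a depth that could be estimated from their low values. The value of 1 fragment, read from genes with a single annotated transcript, gave about 9360000 to 9700000 fragments in the ZsGreen-negative libraries and about 12100000 in ZsGreen-positive replicate 1. No such step was seen in ZsGreen-positive replicates 2 and 3 within the limited range of values searched. A step outside that range, as at a lower depth, would have been missed. Genes listed at 0 numbered 10314, 11624 and 11989 in ZsGreen-positive replicates 1, 2 and 3, against 8985 to 9162 in the negative libraries. With replicate 1 as the only positive library, the members had a median log2 fold change of 0.051. Of 10 epithelial and colorectal markers 7 were tested, of which EPCAM, CD24 and CDX2 were higher, KRT8, KRT18 and CDH1 lower, and KRT19 did not pass. EPCAM and the keratins lay between 126 and 1544 FPKM in every library, while CDH1, the adhesion protein E-cadherin, fell from 49.8 ± 0.455 to 17.4 ± 1.42 FPKM (log2 fold change -1.47). CDX1 was listed at 0 throughout, and VIL1 and LGALS4 never exceeded 0.133 FPKM. The part of these differences in the chaperone results was not tested. Summed fibroblast markers (6 genes, COL1A2, DCN and LUM at 0) were at 2.35 to 2.501 FPKM in the negative and 0.731 to 1.19 FPKM in the positive libraries. For 6 immune markers (CD3E at 0) the sums were 3.10 to 3.98 and 0.471 to 4.42 FPKM, and for 4 endothelial markers 0.107 to 0.142 and 0.171 to 0.310 FPKM.

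**Figure D1:**
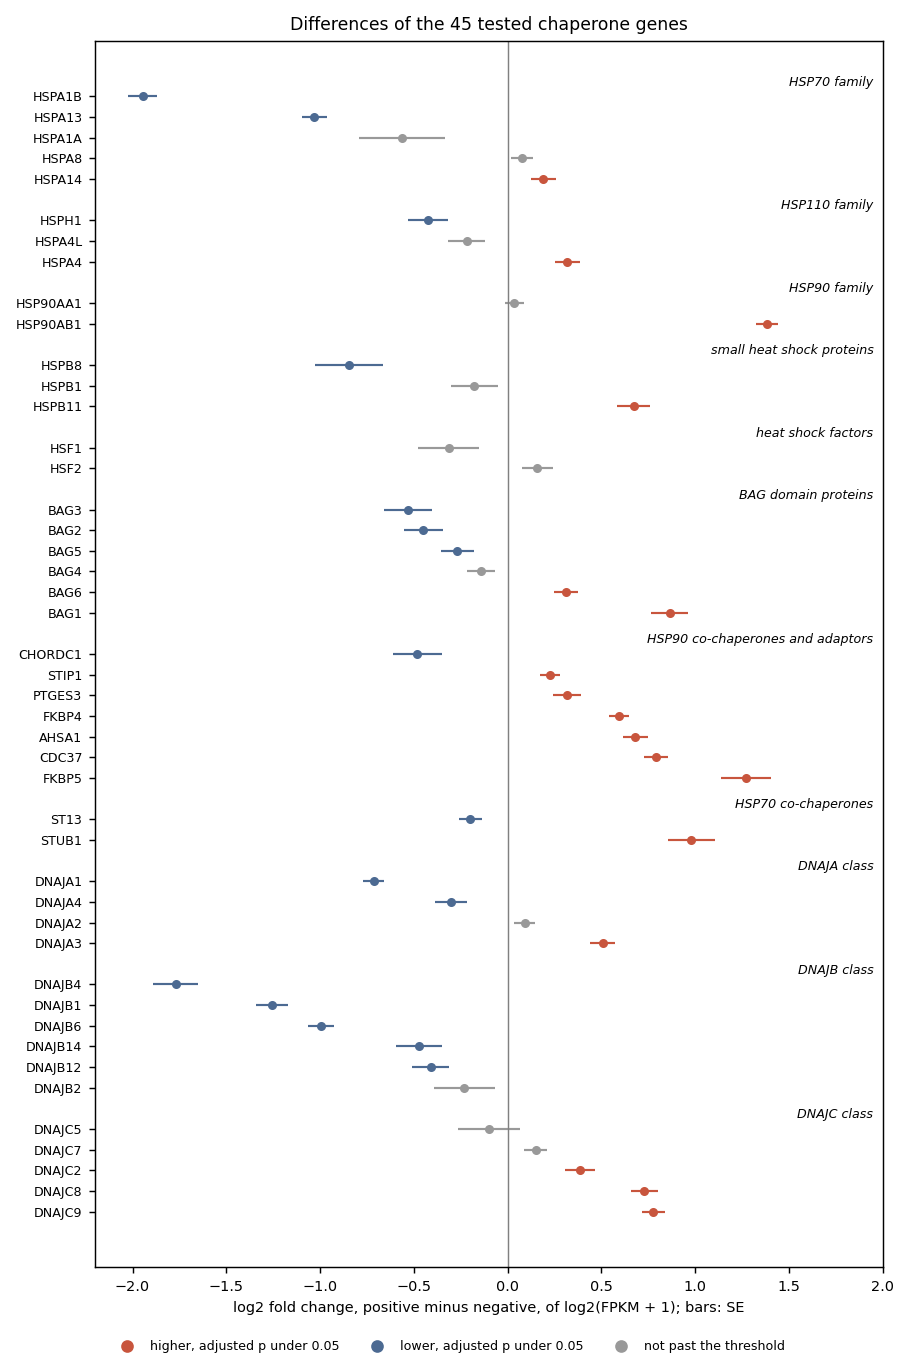
Log2 fold changes (ZsGreen-positive minus ZsGreen-negative, on the log2(FPKM + 1) scale) of the 45 tested chaperone genes with their SE, grouped by role. The DNAJB class lies to the left of 0 and all HSP90 co-chaperones but CHORDC1 lie to the right.

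Heat shock elements were found at the starts of members that rose, fell or did not pass. A promoter window (250 bases before to 50 after an annotated start, RefSeq, build GRCh38.p14, matched by symbol) was found for 41 of the 49 genes, 58 windows in all. The windows were searched for 3 alternating units, that is GAANNTTC followed by NNGAA, or TTCNNGAA followed by NNTTC. These forms are reverse complements, so that both strands are covered. Such a match was present in 6 of the 58 windows (10.3%) and in 0.49% of all 35116 windows, which is a description, since the list was made of heat shock genes. The genes were HSP90AB1, which rose, DNAJA1, DNAJB6 and CHORDC1, which fell, and HSPA8 and HSP90AA1, which did not pass. Of members with a window, this is 1 of 13 higher, 3 of 15 lower and 2 of 10 that did not pass. The shorter form of 2 facing units, GAANNTTC or TTCNNGAA, which each longer match contains, was in 31.0% of the member windows and 13.5% of all. It was present in 2 of the 13 higher and 9 of the 15 lower members, among the latter HSPA1B and DNAJB1, and in 5 of the 10 that did not pass.

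The 250 bases before the start are shown for 5 genes, to set side by side members with the element or its shorter form whose calls differ. They are HSPA1B (chr6:31827488-31827737, plus strand), DNAJB6 (chr7:157336754-157337003, plus strand), HSP90AB1 (chr6:44247693-44247942, plus strand, 1 of its 3 windows), HSP90AA1 (chr14:102087045-102087294, minus strand, 1 of its 2 windows) and HSPA8 (chr11:123062137-123062386, minus strand). Each reads 5′ to 3′ on the strand of the gene, with the matches in capitals: the 2-unit form in HSPA1B, which has no longer match, and the 3-unit form in the others.
HSPA1B: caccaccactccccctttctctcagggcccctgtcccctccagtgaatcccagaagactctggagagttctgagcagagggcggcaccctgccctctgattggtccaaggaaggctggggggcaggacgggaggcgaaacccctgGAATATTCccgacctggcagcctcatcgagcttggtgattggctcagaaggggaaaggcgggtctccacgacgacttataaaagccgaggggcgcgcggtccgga
DNAJB6: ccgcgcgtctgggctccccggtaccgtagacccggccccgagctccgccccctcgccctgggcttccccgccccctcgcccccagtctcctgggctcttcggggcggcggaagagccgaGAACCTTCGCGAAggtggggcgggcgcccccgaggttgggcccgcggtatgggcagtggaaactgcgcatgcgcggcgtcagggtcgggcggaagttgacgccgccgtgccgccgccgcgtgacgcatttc
HSP90AB1: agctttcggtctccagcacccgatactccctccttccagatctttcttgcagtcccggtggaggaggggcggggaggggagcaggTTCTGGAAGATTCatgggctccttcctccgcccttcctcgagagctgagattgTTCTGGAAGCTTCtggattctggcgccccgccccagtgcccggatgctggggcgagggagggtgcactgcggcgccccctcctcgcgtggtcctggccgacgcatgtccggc
HSP90AA1: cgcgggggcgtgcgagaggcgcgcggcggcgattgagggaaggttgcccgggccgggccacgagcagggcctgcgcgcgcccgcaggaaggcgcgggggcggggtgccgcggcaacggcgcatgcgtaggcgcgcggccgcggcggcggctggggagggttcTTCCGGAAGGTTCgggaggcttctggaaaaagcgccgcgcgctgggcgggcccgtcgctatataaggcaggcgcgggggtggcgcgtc
HSPA8: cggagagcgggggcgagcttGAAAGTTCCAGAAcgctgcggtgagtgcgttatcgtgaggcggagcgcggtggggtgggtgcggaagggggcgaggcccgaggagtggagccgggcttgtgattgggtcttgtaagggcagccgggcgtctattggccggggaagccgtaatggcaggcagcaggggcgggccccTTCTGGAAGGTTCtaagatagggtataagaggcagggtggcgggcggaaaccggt
HSP90AB1 has matches that begin 165 and 112 bases before its start, and HSPA8 has them 230 and 55 bases before its start. The match of HSP90AA1 begins 88 bases and that of DNAJB6 131 bases before the start. Which start these cells use was not measured, and a match is no sign of binding.

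HSP90AB1 and most HSP90 co-chaperones rose, while HSP90AA1 did not pass. HSP90AB1 was at 406, 402 and 418 FPKM in ZsGreen-negative and at 1048, 1032 and 1123 FPKM in ZsGreen-positive libraries. Every positive library was more than 2 times above every negative one (log2 fold change 1.38 ± 0.0573 (SE), limma adjusted p = 2.54e-06). HSP90AA1, the inducible cytosolic HSP90, was at 489.96, 491 and 480.2 against 489.3, 496 and 511 FPKM. Its groups overlapped, and the log2 fold change of 0.034 has a 95% confidence interval from -0.083 to 0.15 (limma adjusted p = 0.578). This gene was called higher after rescaling to a common sum (0.21, adjusted p = 0.0495) and lower after quantile normalisation (-0.35, adjusted p = 0.00419). The ratio of HSP90AB1 to HSP90AA1 within a library, which a constant factor per library does not alter, was 0.818 to 0.870 in the negative and 2.08 to 2.196 in the positive libraries (two-sided exact permutation p = 0.1, the lowest value possible with 3 against 3). The order of the isoforms was therefore opposite in the groups.

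Of the 7 co-chaperones and adaptors of HSP90, 6 rose and 1 fell, where 29.4% of all genes rose. FKBP5, a prolyl isomerase that acts on steroid receptors and is itself induced by glucocorticoids, was at 4.81, 4.29 and 4.67 FPKM in the negative and 15.2, 10.9 and 11.7 FPKM in the positive libraries. The groups did not overlap, and replicate 1 was the highest positive library (log2 fold change 1.27 ± 0.13, limma adjusted p = 0.000156). FKBP4, its close relative with the opposite effect on those receptors, rose from 40.9 ± 0.950 to 62.3 ± 0.774 FPKM. CDC37, which brings kinases to HSP90, rose from 119.6 ± 5.55 to 207 ± 11.3 FPKM (log2 fold change 0.79 ± 0.0645). AHSA1, the activator of the HSP90 ATPase, rose from 94.3 ± 2.46 to 152 ± 10.6 FPKM (log2 fold change 0.68 ± 0.0661). STIP1, which couples HSP70 to HSP90, was at 115, 110.04 and 111 against 134, 128 and 132 FPKM. It thus rose by a small step without overlap (log2 fold change 0.23 ± 0.0519, limma adjusted p = 0.00717). PTGES3, the p23 protein that holds HSP90 closed on its client, rose from 85.8 ± 3.86 to 107 ± 8.67 FPKM. With quantile normalisation the calls of STIP1 (adjusted p = 0.651) and PTGES3 (adjusted p = 0.0698) were lost.

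CHORDC1, a zinc-binding partner of HSP90, went the other way and fell from 31.6 ± 1.55 to 22.6 ± 4.10 FPKM (log2 fold change -0.48 ± 0.13, limma adjusted p = 0.0153). Its call was lost without ZsGreen-negative replicate 2 (adjusted p = 0.0552) and after rescaling to a common sum (adjusted p = 0.174). Set against the summed HSP90 genes, CDC37 kept a like share, at 13.03%, 12.99% and 14.03% in the negative and 14.2%, 12.8% and 12.8% in the positive libraries. AHSA1 was at 10.3% to 10.8% of that sum in the negative and 9.28% to 9.97% in the positive libraries.

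**Figure D2:**
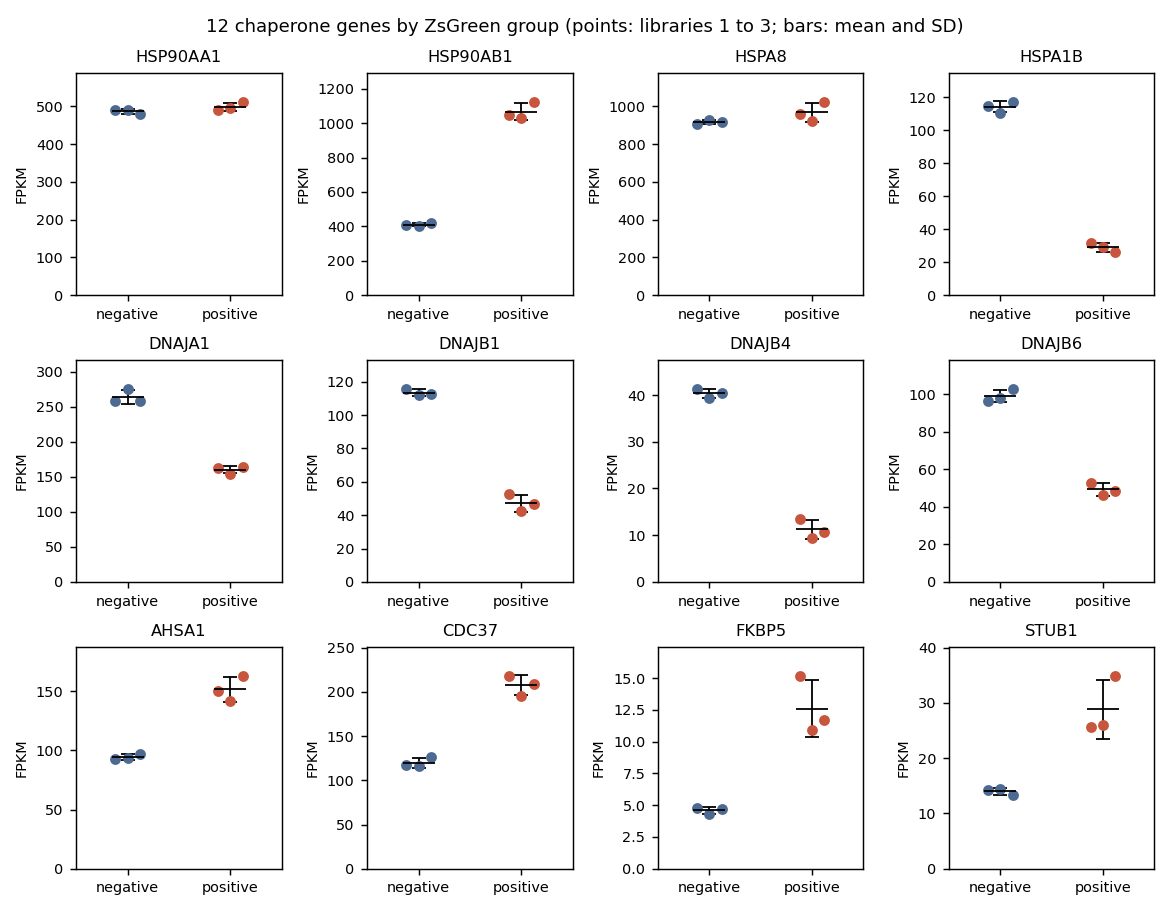
FPKM of 12 chaperone genes in each library (points), with the mean and SD of each group and axes from 0. HSP90AB1, AHSA1, CDC37, FKBP5 and STUB1 are higher in every positive library, HSPA1B, DNAJA1, DNAJB1, DNAJB4 and DNAJB6 lower, and HSP90AA1 and HSPA8 overlap.

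In the HSP70 family the inducible gene fell and the constitutive one stayed the dominant member. HSPA1B was at 115, 111 and 117 FPKM in ZsGreen-negative and at 31.4, 29.4 and 26.1 FPKM in ZsGreen-positive libraries. This was the lowest log2 fold change of the 45 tested members, -1.95 ± 0.0780 (limma adjusted p = 2.28e-06). HSPA1A, which encodes an almost identical protein, was at 1.49, 1.13 and 1.93 against 0.408, 0.589 and 1.16 FPKM. Its groups overlapped by a narrow margin and it did not pass (log2 fold change -0.56 ± 0.23, adjusted p = 0.0667 with limma). It did without ZsGreen-positive replicate 3 (-0.74, adjusted p = 0.0187) and without a mean-variance trend (adjusted p = 0.0423). With replicate 1 as the only positive library its log2 fold change was -0.83. It reached the minimum level through the negative libraries. How the authors' counting split fragments between these near-identical copies is not known, so their single values are uncertain, and their sum is the safer measure. That sum was 117, 112 and 119 FPKM in the negative and 31.8, 30.0 and 27.3 FPKM in the positive libraries.

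HSPA8, the constitutive HSC70, was at 906, 928 and 918 against 960.1, 922 and 1022 FPKM. These groups overlapped (log2 fold change 0.077, 95% confidence interval -0.064 to 0.22, limma adjusted p = 0.301). As with HSP90AA1, the call went either way with the scaling: it was higher after rescaling to a common sum (0.25, adjusted p = 0.0149) and lower after quantile normalisation (-0.38, adjusted p = 0.000786). Within a library, HSPA1A and HSPA1B together amounted to 12.1% to 12.97% of HSPA8 in the negative and 2.67% to 3.31% in the positive group (two-sided exact permutation p = 0.1). HSP90AB1 stood at 0.433 to 0.455 of the HSPA8 level in the negative and 1.09 to 1.12 in the positive libraries, so the most abundant of the 49 genes by mean FPKM was HSPA8 in one group and HSP90AB1 in the other.

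HSPA13, the microsomal member, was at 70.9, 72.2 and 73.3 FPKM in the negative and 32.2, 36.0 and 36.4 FPKM in the positive libraries. It fell to about the same extent in every library (log2 fold change -1.03 ± 0.0673, limma adjusted p = 1.68e-05). HSPA14, which works at the ribosome, rose from 23.8 ± 1.09 to 27.3 ± 0.504 FPKM (log2 fold change 0.19 ± 0.0664, limma adjusted p = 0.0409). That call was lost under 8 of 17 alternatives. HSPA1L and HSPA2, known best from the testis, were too low to be tested. HSPA1L was listed at 0.277, 0.375 and 0.450 against 0.292, 0.406 and 0 FPKM, and HSPA2 at 0.613, 0.682 and 0.670 against 0.473, 0.483 and 1.03 FPKM.

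The HSP110 proteins, exchange factors of HSP70, did not move together. HSPH1, the heat-inducible one, was at 22.9, 23.4 and 23.8 FPKM in the negative and 17.4, 19.6 and 14.8 FPKM in the positive libraries. It fell (log2 fold change -0.42 ± 0.10, limma adjusted p = 0.0101), but the call was lost after rescaling to a common sum (-0.24, adjusted p = 0.155). HSPA4 rose from 93.0 ± 2.86 to 116 ± 7.77 FPKM (log2 fold change 0.32 ± 0.0659, limma adjusted p = 0.00446), a call lost with quantile normalisation (adjusted p = 0.0982). HSPA4L was at 10.51 ± 0.341 and 8.92 ± 0.983 FPKM and did not pass (limma adjusted p = 0.0937), but did without ZsGreen-positive replicate 2 (adjusted p = 0.0165). With replicate 1 as the only positive library its log2 fold change was -0.32, against -0.22 in the main fit.

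Among J-domain proteins, most tested genes of the DNAJB class fell, and the 5 listed genes of the DNAJC class rose or did not pass. Of 6 tested DNAJB genes 5 were lower and 0 higher, where 30.0% of all genes were lower. After rescaling to a common sum 3 of them were lower, since DNAJB12 (adjusted p = 0.161) and DNAJB14 (adjusted p = 0.101) no longer passed. DNAJB4 was at 41.3, 39.4 and 40.4 FPKM in the negative and 13.5, 9.50 and 10.7 FPKM in the positive libraries. It came next to HSPA1B in the size of its fall (log2 fold change -1.77 ± 0.12, limma adjusted p = 1.91e-05). DNAJB1 was at 116, 112 and 113 against 52.6, 42.2 and 46.6 FPKM. Its highest positive library stayed well below its lowest negative one (log2 fold change -1.26 ± 0.0839, limma adjusted p = 1.84e-05). DNAJB6, a suppressor of protein aggregation, fell from 99.1 ± 3.32 to 49.2 ± 3.34 FPKM (log2 fold change -0.996 ± 0.0679).

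The other DNAJB genes moved less. DNAJB12 fell from 9.68 ± 0.752 to 7.03 ± 0.522 FPKM, a call lost without ZsGreen-negative replicate 1 (adjusted p = 0.0537), and DNAJB14 from 23.7 ± 0.457 to 16.9 ± 2.88 FPKM. DNAJB2, which binds ubiquitin through its tail, was at 15.1, 16.2 and 16.0 against 17.4, 10.6 and 12.6 FPKM. Its positive libraries lay on both sides of the negative ones, and it passed only without ZsGreen-positive replicate 1 (-0.42, adjusted p = 0.00952, against 0.254 with limma on all libraries). DNAJB5 was not tested, at 0.70, 0.719 and 0.808 against 1.38, 0.779 and 0.937 FPKM.

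DNAJA1, the most abundant J-domain member, was at 258, 276 and 259 FPKM in the negative and 163, 155 and 164 FPKM in the positive libraries. It fell by 0.72 on the log2 scale, with an SE of 0.0556 (limma adjusted p = 3.68e-05). DNAJA4 fell less, from 13.03 ± 0.918 to 10.4 ± 0.254 FPKM, and lost its call under 5 of 17 alternatives. These include rescaling to a common sum (-0.13, adjusted p = 0.296) and leaving out ZsGreen-negative replicate 2 (adjusted p = 0.0737) or 3 (adjusted p = 0.0909). With replicate 1 as the only positive library the log2 fold change of DNAJA4 was -0.27, against -0.30 in the main fit. DNAJA2, the second general partner of HSC70, was at 56.1 ± 1.45 and 59.8 ± 1.46 FPKM and did not pass (limma adjusted p = 0.195), except after rescaling to a common sum (adjusted p = 0.0371). DNAJA3, the mitochondrial member, rose from 26.3 ± 0.819 to 37.8 ± 1.75 FPKM (log2 fold change 0.51 ± 0.0661).

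Of the 5 DNAJC genes among the 49, 3 rose and 0 fell. Of all genes 29.4% were higher, and 35.0% of those at 10 FPKM or more. Further DNAJC genes measured here, outside the 49, went both ways. DNAJC12 was higher (log2 fold change 0.59), while DNAJC16 (-0.51), DNAJC21 (-0.48) and DNAJC27 (-0.71) were lower, and the others tested did not pass. DNAJC9, a chaperone that also handles histones H3 and H4, rose from 26.2 ± 0.742 to 45.6 ± 1.09 FPKM (log2 fold change 0.78 ± 0.0602). DNAJC8, linked to the splicing machinery, rose from 51.9 ± 4.09 to 86.5 ± 2.38 FPKM (log2 fold change 0.73 ± 0.0719). DNAJC2, the ribosome-bound partner of HSPA14, rose from 17.2 ± 0.634 to 22.9 ± 1.77 FPKM. DNAJC7, a TPR protein that handles clients of both HSP70 and HSP90, was at 42.5 ± 0.846 and 47.3 ± 2.27 FPKM and did not pass (limma adjusted p = 0.0731). It did without ZsGreen-positive replicate 2 (adjusted p = 0.0308) and after rescaling to a common sum (adjusted p = 0.0118). With replicate 1 as the only positive library its log2 fold change was 0.14, against 0.15 in the main fit. DNAJC5, the cysteine string protein of secretory vesicles, was at 21.4, 20.8 and 20.2 against 14.3, 21.3 and 23.5 FPKM, so 1 positive library lay below and 1 above all negative ones (limma adjusted p = 0.629). With replicate 1 as the only positive library its log2 fold change was -0.51, against -0.10 in the main fit. The tables also list antisense genes of DNAJC9 and DNAJB5, and since the use of strand in counting is not given in the sources used here, reads of such pairs may be mixed.

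The makeup of the J-domain pool therefore differed. Summed over 16 genes it was 808, 833 and 822 FPKM in the negative and 652, 615 and 643 FPKM in the positive libraries. DNAJA1 gave 31.5% to 33.1% of this sum in the negative and 25.0% to 25.5% in the positive libraries, and DNAJB1 13.5% to 14.3% and 6.87% to 8.07%. DNAJC8 gave 5.88% to 6.77% and 13.2% to 13.9%, and DNAJC9 3.14% to 3.22% and 7.05% to 7.26%. The ratio of the summed J-domain genes to the summed HSP70 family was 0.722 to 0.732 in the negative and 0.577 to 0.619 in the positive libraries. For each of these 5 quantities, which a constant factor per library does not alter, the groups did not overlap (two-sided exact permutation p = 0.1).

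**Figure D3:**
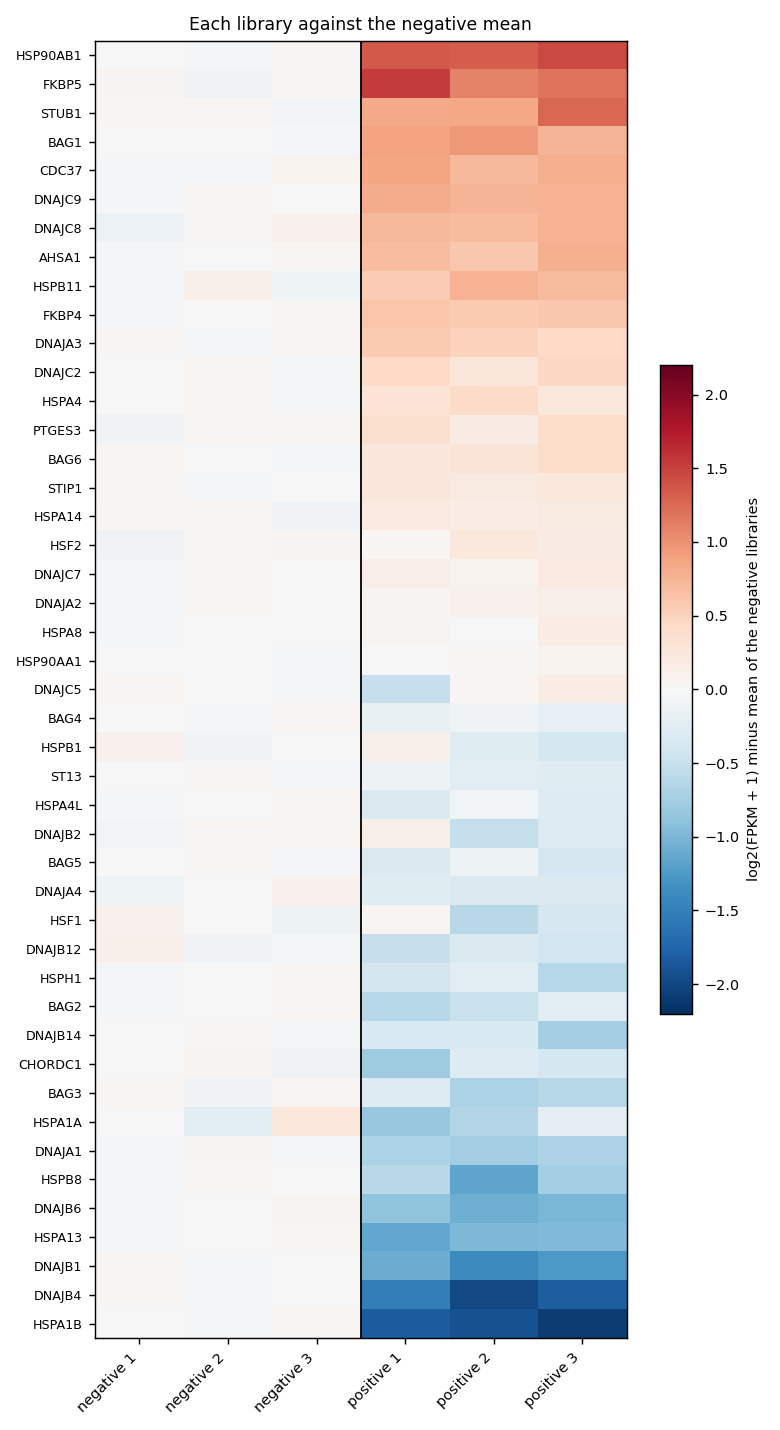
Difference of log2(FPKM + 1) in each library from the mean of the ZsGreen-negative libraries, for the 45 tested members ordered by log2 fold change (red higher, blue lower). The positive libraries share the sign in most rows, while HSPB1, HSF1, DNAJB2 and DNAJC5 differ between positive replicate 1 and replicates 2 and 3.

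A broad list of members known as heat-inducible was split as follows. It also holds HSP90AB1, its highest log2 fold change (1.38), and HSPA8, both called constitutive above. Of its 18 tested genes, 8 were lower, 5 higher and 5 did not pass. Their median log2 fold change was -0.32, and of all genes 30.0% were lower and 29.4% higher. The balance of this list turned to 7 higher and 6 lower after rescaling to a common sum, and was 3 higher and 11 lower with quantile normalisation. Of the 27 other members tested 8 were lower, 12 higher and 7 did not pass, with a median of 0.15. These counts became 14 higher and 2 lower after rescaling, and 10 higher and 8 lower with quantile normalisation. The difference between these sets was not tested. Immediate early genes, which respond to the handling of cells as well as to growth signals, were mostly lower in the same libraries. Of 10 such genes 9 were lower and 0 higher, where 30.0% of all genes were lower. Under some alternatives 1 was higher, among them after rescaling, with the replicate number in the model, and without ZsGreen-positive replicate 1 or 2. Their summed levels were 1350 to 1414 FPKM in the negative and 590.4 to 860.4 FPKM in the positive libraries. IER3 fell from 727 ± 9.43 to 387 ± 52.4 FPKM and JUNB from 134 ± 6.19 to 62.2 ± 18.1 FPKM. FOS, the member that did not pass, was at 73.3, 71.3 and 70.9 against 156, 78.5 and 90.4 FPKM, higher in every positive library (limma adjusted p = 0.0550). Their part in the falls of inducible chaperones was not tested.

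The heat shock factors themselves did not pass. HSF1, the main factor of the heat shock response, was at 26.6, 25.0 and 23.0 FPKM in the negative and 25.6, 15.9 and 19.0 FPKM in the positive libraries. Positive replicate 1 lay within the negative range and replicates 2 and 3 below it (log2 fold change -0.32 ± 0.16, limma adjusted p = 0.129). Without that library HSF1 was lower (-0.49, adjusted p = 0.00735), and with it as the only positive library the value was 0.040. HSF2, a partner of HSF1 with roles in development, was at 15.3, 16.7 and 16.9 against 16.9, 19.4 and 18.7 FPKM. Its groups overlapped narrowly (log2 fold change 0.16 ± 0.0835, limma adjusted p = 0.141), and it passed without positive replicate 1 (0.21, adjusted p = 0.0469). HSF1 protein is activated without new RNA, by trimer formation and phosphorylation, so these levels do not measure its activity.

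Small heat shock proteins hold unfolded proteins without ATP. Of 3 tested, 1 rose and 1 fell, where 29.4% of all genes were higher and 30.0% lower. HSPB1, the abundant HSP27, was at 107, 94.4 and 99.1 against 108, 83.4 and 76.3 FPKM. The spread of its positive libraries covered the negative range (log2 fold change -0.18 ± 0.13, limma adjusted p = 0.265). It was lower without positive replicate 1 (-0.32, adjusted p = 0.0101) and with quantile normalisation (-0.33, adjusted p = 0.0315). HSPB8, the partner of BAG3 in the selective autophagy of misfolded proteins, fell from 2.97 ± 0.101 to 1.23 ± 0.424 FPKM (log2 fold change -0.85 ± 0.18, limma adjusted p = 0.00509). The gene that rose was HSPB11, better known from intraflagellar transport, which went from 33.1 ± 2.93 to 53.3 ± 4.05 FPKM. CRYAB, alpha B-crystallin, was listed at 0 in all 6 libraries.

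Among the BAG proteins 2 rose, 3 fell and 1 did not pass, where 29.4% of all genes were higher and 30.0% lower. After rescaling to a common sum 2 were higher and 1 lower. BAG1, which links HSP70 to the proteasome, rose from 4.25 ± 0.0656 to 8.57 ± 0.677 FPKM (log2 fold change 0.86 ± 0.0996). BAG6, which guards newly made membrane proteins in the cytosol, rose from 33.5 ± 0.811 to 41.9 ± 2.27 FPKM. BAG3, inducible by stress and tied to autophagy, was at 11.4, 10.4 and 11.45 FPKM in the negative and 8.93, 6.47 and 6.82 FPKM in the positive libraries. It fell with no overlap (log2 fold change -0.53 ± 0.13, limma adjusted p = 0.00874). BAG2, an inhibitor of the ubiquitin ligase CHIP, fell from 34.0 ± 1.07 to 24.8 ± 3.66 FPKM and lost its call after rescaling to a common sum (adjusted p = 0.114). BAG5 fell from 23.5 ± 0.529 to 19.4 ± 2.101 FPKM, a call lost under 6 of 17 alternatives. BAG4 was at 14.7 ± 0.449 and 13.2 ± 0.532 FPKM and did not pass.

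STUB1, which encodes CHIP, the ligase that ubiquitinates clients of HSP70 and HSP90, was at 14.2, 14.4 and 13.3 FPKM in the negative and 25.6, 26.0 and 34.9 FPKM in the positive libraries. All positive libraries lay above all negative ones (log2 fold change 0.98 ± 0.12, limma adjusted p = 0.000421). Its level relative to HSPA8 was 1.45% to 1.57% in the negative and 2.67% to 3.42% in the positive libraries. ST13, the HIP protein that stabilises HSP70 with bound substrate, fell from 126 ± 2.30 to 109.9 ± 6.65 FPKM (log2 fold change -0.20 ± 0.0613, limma adjusted p = 0.0249). The call of ST13 was lost under 8 of 17 alternatives.

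Summed by role, the groups separated for most families. The HSP90 genes summed to 893 to 898 FPKM in the negative and 1528 to 1635 FPKM in the positive libraries, and the HSP90 co-chaperones to 482 to 498 and 661 to 716 FPKM. DNAJB genes summed to 299.8 to 305 and 136 to 163 FPKM, and DNAJC genes to 153 to 161 and 217 to 232 FPKM (two-sided exact permutation p = 0.1 for each). The sum of all 49 was 3875, 3919 and 3909 FPKM in the negative and 4546, 4400.3 and 4668 FPKM in the positive libraries. As a share of the summed FPKM of a library this is 0.212% to 0.215% and 0.257% to 0.300%. HSP90AB1 alone rose from a mean of 408 to 1067 FPKM, while the means of the sum were 3901 and 4538 FPKM. In FPKM as listed, the other members together thus showed no rise of their mean. HSP90AB1 also made up most of the rise of the HSP90 genes. The HSP70 family summed to 1119 to 1137 and 1016 to 1114 FPKM, but its direction turned after rescaling to a common sum, so no change is given for it. The same holds for the BAG proteins, which summed to 120 to 122 and 111 to 119 FPKM.

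Other cytosolic chaperones and co-chaperones, a list of 50 genes outside the 49, were also measured. Of 38 tested, 16 were higher, 5 lower and 17 did not pass, with a median log2 fold change of 0.34. In all 55.3% of them were called, where 59.4% of all genes were, 29.4% higher and 30.0% lower. UNC45A, a myosin chaperone that binds HSP90, rose from 10.1 ± 0.536 to 37.0 ± 0.931 FPKM (log2 fold change 1.77 ± 0.0714). AARSD1 rose from 14.1 ± 0.449 to 35.1 ± 3.15 FPKM. PIH1D1, a subunit of the R2TP complex that assembles protein machines with HSP90, rose from 34.2 ± 1.88 to 74.7 ± 6.21 FPKM. HSPBP1, an exchange factor of HSP70, rose from 11.7 ± 0.926 to 24.2 ± 4.86 FPKM. Of 6 prefoldin subunits, which pass unfolded actin and tubulin to the chaperonin, 3 rose and 1 fell, where 29.4% of all genes were higher. After rescaling 4 were higher and 0 lower. PFDN2 rose from 35.0 ± 4.30 to 71.0 ± 14.7 FPKM, PFDN6 from 61.8 ± 5.80 to 99.3 ± 12.7 FPKM and VBP1 from 48.5 ± 3.99 to 60.8 ± 4.41 FPKM, while PFDN5 fell from 508 ± 27.6 to 427 ± 38.3 FPKM.

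Other known targets of heat shock factors split evenly, with 4 of 10 higher, 4 lower and 2 not passing, where 29.4% of all genes were higher and 30.0% lower. HSPE1, the mitochondrial co-chaperonin, rose from 79.3 ± 4.54 to 221 ± 12.7 FPKM (log2 fold change 1.46 ± 0.0690, limma adjusted p = 4.1e-06). IER5, an activator of HSF1, fell from 61.9 ± 1.81 to 36.5 ± 3.34 FPKM, and CLU, the extracellular chaperone clusterin, from 61.4 ± 2.77 to 38.5 ± 5.83 FPKM.

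Spread among libraries was larger in the ZsGreen-positive group. The SD of log2(FPKM + 1) was larger there for 35 of the 45 members, with a median of 0.0998 against 0.043, and for 10801 of the 12213 genes tested (0.19 against 0.068). The positive library farthest from the group's median was replicate 1 for 18 members, replicate 2 for 12 and replicate 3 for 15. For 4 members, HSPB1, HSF1, DNAJB2 and DNAJC5, replicate 1 lay on the other side of the negative mean from replicates 2 and 3.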

How the data were processed

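The authors deposited 1 table of FPKM values per library, with 1 value for each gene symbol, per the file headers. Per the labels' protocols, RNA was isolated with TRIzol and a miRNeasy Micro kit and a stranded mRNA kit was used for the libraries. The submitters' processing notes name TopHat2 2.1.1, Bowtie2 2.2.8, SAMtools 0.1.18, Cuffdiff 2.2.1 and the build hg19. The sources used here do not give settings, annotation, use of strand or scaling between libraries.

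FPKM is a relative measure, and where its scale is a library total, abundant RNAs shift all other values. The listed values were already near a scale of median ratios. That scaling left the median log2 fold change of all genes at 0.0036, against 0.0040 in the main fit. Values were taken as log2(FPKM + 1), which understates changes of low genes. Genes whose mean reached 1 FPKM were compared by limma 3.58.1 (R 4.3.3; two-sided moderated test, variance trend on) at a Benjamini-Hochberg adjusted p of 0.05. All 6 libraries entered the fit. It was tried on simulated data with the same spread in both groups, which does not cover the larger spread of the positive group. Sums and ratios were compared by exact permutation tests (SciPy 1.17.1). The alternatives were other pseudocounts, filters, scalings and variance models, a replicate block, and libraries left out. Members and lists were chosen with earlier results of these data known. Every library's values are given for members changed at least 2-fold and for 14 fixed members, while for other lists up to 4 called genes with the largest change (immediate early genes: the 3 highest) are given, mostly by mean and SD. Of these, 1 gene is not reported here. Depth was estimated with transcript lengths from GENCODE, whose build differs from that of the files.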

Additional observations from a re-analysis of the deposited data

How the results depend on the processing

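Leaving out single libraries gave 16 to 18 higher and 12 to 18 lower members, with medians of -0.099 to 0.048, the latter without ZsGreen-positive replicate 1. Keeping that replicate alone in its group, which assumes that it varies like the negative libraries, gave a median of 0.051. The median was -0.055 with no filter and 0.034 at a minimum mean of 5 FPKM. It was 0.070 after rescaling to a sum of 1000000, -0.25 after quantile normalisation and -0.10 after scaling by median ratios. The sign of this median is thus not settled. Rescaling left 8 lower members. The log2 fold changes of HSPA8 (-0.38) and HSP90AA1 (-0.35) turned negative with quantile normalisation, and those of HSPB1 (0.11) and HSF1 (0.040) turned positive with ZsGreen-positive replicate 1 kept alone. After rescaling, the log2 ratios of summed FPKM turned positive for the HSP70 family (0.090), the heat shock factors (0.075), the BAG proteins (0.11) and the HSP70 co-chaperones (0.16). For the last, leaving out single libraries gave -0.038 (without ZsGreen-positive replicate 1) to 0.010 (without ZsGreen-positive replicate 2). The cause of these turns was not tested.

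Without ZsGreen-negative replicate 1, 2 or 3, the calls were lost for HSPA14 (adjusted p = 0.103, 0.0922 and 0.179), BAG5 (0.0993, 0.112 and 0.0816) and ST13 (0.080, 0.103 and 0.0721). Without ZsGreen-positive replicate 1 they were lost for HSPA14 (0.0558) and BAG5 (0.0679), and without replicate 3 for HSPA14 (0.0530), BAG5 (0.0716) and ST13 (0.0538). Same-numbered libraries of the groups did not deviate together (correlations of -0.021, -0.030 and -0.021 over 12213 genes, and 0 of 6 libraries correlated best with their own number). The lack of a shared deviation cannot show that they were prepared apart, so whether the numbers pair them is not known. With the replicate block in the model, 16 members were higher and 14 lower, with a median of -0.10, and the calls of HSPA14 (adjusted p = 0.103), ST13 (0.0543) and DNAJA4 (0.0510) were lost. Depth was not found for ZsGreen-positive replicates 2 and 3 within the range searched, so no counting error is given for low members such as HSPA1A.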
